A study of Mus musculus with 46 samples.

Results

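The muscle miRNAs of the miR-1, miR-133 and miR-206 families were followed in mouse heart, liver and brain that had been stored after death. The members were the 5 miRNAs named mmu-miR-1a-3p, mmu-miR-133a-3p, mmu-miR-133a-5p, mmu-miR-133b-3p and mmu-miR-206-3p, chosen by name out of 1881 mouse miRNAs on the array. All 5 carried the scanner software's detection flag on at least 5 of the 45 arrays analysed, as did 815 of the 1881 miRNAs, and these 815 were tested. The organs came from male C57BL6 mice of an Il1a knock-out strain, so that no group holds a wild-type animal. They were taken directly after death, cut into pieces and kept at 4 °C or at room temperature (RT) until total RNA was isolated. The study asked how storage and the loss of RNA integrity alter miRNA profiles, with integrity given as the RNA integrity number (RIN), which is high in intact RNA and low in degraded RNA. Heart at 4 °C had 7 arrays from 1 to 96 h of storage with RIN values of 8.1 to 8.8, and heart at RT had 8 arrays from 0 to 96 h with RIN values of 2.2 to 9. Liver had 6 arrays at 4 °C, from 0 to 48 h with RIN values of 3.4 to 9.1, and 8 arrays at RT, from 0 to 96 h with RIN values of 2.3 to 7.1. Brain had 8 arrays at 4 °C (0 to 96 h, RIN values of 7.3 to 8.7) and 8 at RT (0 to 96 h, RIN values of 3.3 to 8.7).

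Mature miRNAs guide Argonaute proteins to messenger RNAs, mainly through the seed, bases 2 to 8 counted from their 5′ end. MiR-1 and miR-133 are made from shared primary transcripts under the control of muscle transcription factors, are abundant in cardiac and skeletal muscle, and act in the growth and differentiation of muscle cells. MiR-206 has the same seed as miR-1 and is known as a miRNA of skeletal muscle, with little of it in heart. The -3p arm is the guide strand of the miR-1, miR-133 and miR-206 precursors, and miR-133a-5p is the opposite arm of the miR-133a hairpin.

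Mature sequences of 2 of the 5 members were found in RefSeq's table for GRCm38.p6, and they are shown because they carry the seeds of the 2 seed families, with the seed in capitals.
miR-206-3p: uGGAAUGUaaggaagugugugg
miR-133b-3p: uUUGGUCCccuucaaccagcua
MiR-206-3p lies at chr1:20679055-20679076 and miR-133b-3p at chr1:20682834-20682855, both on the plus strand. Of the 1679 mature names in the table, 2 others (miR-6349 and miR-6382) had the seed of miR-206-3p and 0 others had that of miR-133b-3p, a count that leaves out miR-1a-3p and miR-133a-3p, whose sequences were not used here. The hairpins are shown to place both arms of each precursor, with the mature arms in capitals.
Mir206: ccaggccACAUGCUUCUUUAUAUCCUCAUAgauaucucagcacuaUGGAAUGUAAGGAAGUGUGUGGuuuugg
Mir133b: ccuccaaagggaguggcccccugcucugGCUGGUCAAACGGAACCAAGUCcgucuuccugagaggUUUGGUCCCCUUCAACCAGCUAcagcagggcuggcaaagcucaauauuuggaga
The hairpin of 73 bases of Mir206 (chr1:20679010-20679082) and that of 119 bases of Mir133b (chr1:20682769-20682887) are 3686 bases apart, and the long non-coding RNA gene Lincmd1 (chr1:20669882-20682958) spans both. On chromosome 2, Mir1a-1 (chr2:180389048-180389124) and Mir133a-2 (chr2:180398379-180398482) are 9254 bases apart within the span of the host gene Mir1a-1hg (chr2:180385604-180401802). Whether these lie in exons or introns was not looked up. The 5p arms of Mir206 and Mir1a-1 show how closely the miR-1 and miR-206 precursors are related, again with bases 2 to 8 in capitals.
miR-206-5p: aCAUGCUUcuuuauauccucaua
miR-1a-1-5p: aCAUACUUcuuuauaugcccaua
Over their 23 bases, 20 are the same, and the differences from miR-206-5p to miR-1a-1-5p, counted from the 5′ end, are G5A, C17G and U19C. Both arms were on the array and are described with the other muscle miRNAs.

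The values are the deposited log2 values, made by variance stabilizing normalization (VSN), in which a difference of 1 stands for a doubling of bright signals. A miRNA without the detection flag also has a value, near the background. The lowest value of a detected miRNA was 0.25 to 1.79 on the log2 scale, depending on the array. Between 268 and 798 miRNAs were detected on an array, and the summed signal of these was 153088 to 541770 units, with 0 saturated miRNA spots. The heart array of 0 h at 4 °C, which the study also set aside, had 215 detected miRNAs and miR-1a-3p at 10.73, against 13.64 to 14.93 on the other heart arrays, and was left out. Each combination of tissue and temperature was 1 organ of 1 animal on 1 slide, so that temperature, animal and slide cannot be told apart. The 3 organs of a temperature came from the same animal. The arrays of a slide are pieces of that organ at different storage times, and all p-values below measure only the spread between such pieces. The tissue labels were borne out by other miRNAs, with miR-208a-3p detected on 15 of 15 heart arrays and on 0 of 14 liver and 0 of 16 brain arrays, miR-122-5p at 11.19 or higher on every liver array, and miR-124-3p at 12.97 or higher on every brain array. The opposite arm miR-208a-5p was less specific, detected on 15 of 15 heart, 9 of 14 liver and 12 of 16 brain arrays.

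Heart held high levels of 4 of the 5 members at every storage time and at both temperatures. MiR-1a-3p, which represses growth-promoting targets in muscle, lay between 14.13 and 14.75 at 4 °C (median 14.61, n = 7) and between 13.64 and 14.93 at RT (median 14.38, n = 8). MiR-133a-3p lay between 13.06 and 13.47 at 4 °C (median 13.21) and between 12.09 and 13.56 at RT (median 13.01). MiR-133b-3p, whose sequence is nearly that of miR-133a-3p, lay between 13.84 and 14.26 at 4 °C (median 14.01) and between 13.07 and 14.36 at RT (median 13.83). In each of these miRNAs the ranges of the 2 temperatures overlapped, and both the lowest and the highest heart array were RT arrays. MiR-133a-5p lay between 8.60 and 9.02 at 4 °C (median 8.83) and between 7.66 and 9.36 at RT (median 8.78), with the same overlap. In all 4 the lowest array was that of 96 h at RT, with a RIN of 2.2, and the highest was that of 3 h at RT, with a RIN of 8.6. This order is that of the normalized values. The signals of miR-1a-3p before normalization, given further below, were ordered otherwise. MiR-206-3p was detected on 2 of the 15 heart arrays and is described further below.

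**Figure D1:**
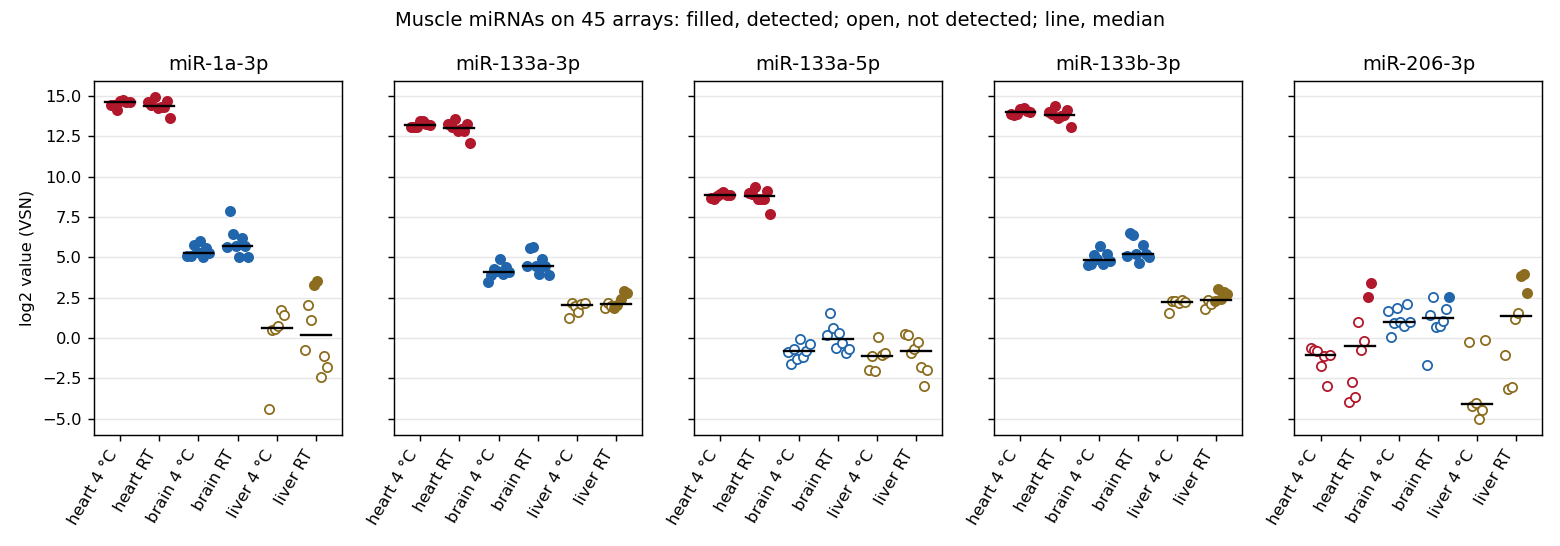
Log2 value (VSN) of each member on the 45 arrays, by tissue and storage temperature, with 1 point per array, filled where the miRNA was detected and open where it was not, and a line at the median. The heart points of miR-1a-3p, miR-133a-3p, miR-133a-5p and miR-133b-3p lie above every brain and liver point, while those of miR-206-3p do not.

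Among the 33 arrays with RIN over 6 (13 heart, 6 liver and 14 brain), the abundant members stood far higher in heart than in the other tissues. Of the 6 liver arrays, 5 were of the 4 °C slide and 1 of the RT slide, so that intact liver is nearly 1 organ. The differences were fitted with limma over the 815 miRNAs, with the slide as a random block. With 1 mean per slide instead, the heart against liver adjusted p of the 4 abundant members lay between 4.19e-05 and 0.000661. MiR-1a-3p had a mean of 14.50 ± 0.23 (SD, n = 13) in heart and 5.71 ± 0.76 (n = 14) in brain, a difference of 8.78 ± 0.40 (SE) on the log2 scale or 440-fold (adjusted p = 3.21e-20). MiR-133a-3p had means of 13.16 ± 0.22 in heart and 4.43 ± 0.63 in brain, 422-fold apart (8.72 ± 0.19, adjusted p = 1.24e-29). MiR-133b-3p had means of 13.96 ± 0.21 and 5.23 ± 0.64, 423-fold apart (8.72 ± 0.19, adjusted p = 1.53e-29). No heart array overlapped a brain array in these 3 miRNAs, degraded arrays included, with the lowest heart array of miR-1a-3p at 13.64 and the highest brain array at 7.84. MiR-133a-5p had a mean of 8.84 ± 0.21 in heart and was detected on 0 of the 14 intact brain arrays, so that heart was at least 186-fold higher (measured brain mean -0.37, adjusted p = 5.97e-26). Against liver, where none of the members was detected on an intact array, only bounds can be given. Heart was at least 7243-fold higher than liver in miR-1a-3p (adjusted p = 6.66e-23), at least 2405-fold in miR-133a-3p (adjusted p = 1.08e-29), at least 3677-fold in miR-133b-3p (adjusted p = 6.93e-30) and at least 144-fold in miR-133a-5p (adjusted p = 9.03e-23). The measured liver means of these miRNAs were -0.27, 1.81, 2.07 and -0.97. A bound sets the heart mean against the higher of the miRNA's own value and the lowest value of any detected miRNA, averaged over the 6 liver arrays. Each p-value printed beside a bound, in this and later paragraphs, is that of the limma fit to the measured values and does not test the bound. The sizes depend on how dim signals are treated. Under normexp the differences from liver were 7.99 for miR-1a-3p, 6.42 for miR-133a-3p, 7.33 for miR-133b-3p and 2.6 for miR-133a-5p on the log2 scale, and those from brain 7.84, 6.85, 7.49 and 3.54 in the same order, all of them passing the test.

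The same fit called 5 of the 5 members higher in heart than in liver, where 44.9% of the 815 miRNAs were called higher, and 4 of 5 higher in heart than in brain, where 22% were. MiR-133a-5p was detected on heart arrays alone, so that it passed the detection filter only through heart. Its calls against liver and brain, counted here, are therefore not independent of that filter. The median fitted difference of the members against brain was 8.72, beside a median over all 815 miRNAs of -0.44, and none is given against liver, where the members were undetected. MiR-206-3p is the exception in size and direction, with differences of 1.65 ± 0.68 against liver (adjusted p = 0.0412) and -2.49 ± 0.54 against brain (adjusted p = 0.000137) between values that were below detection on every intact array, so that no fold is given. Leaving out the liver slide of 4 °C, an alternative chosen after seeing the data, turned the heart against liver difference of miR-206-3p to -0.41 (adjusted p = 0.803), and normexp turned it to -0.78 (adjusted p = 1.76e-08). In limma with 1 mean per slide its calls were lost against liver (0.83, adjusted p = 0.458) and brain (-2.485, adjusted p = 0.0585). Over all 45 arrays both were lost too (0.08, adjusted p = 0.973, and -2.06, adjusted p = 0.111). Under 75th percentile scaling, quantile normalization and no scaling the call against liver was lost and that against brain was kept. Normexp turned the difference from brain to 0.07 (adjusted p = 0.399).

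Brain held lower but clearly detected levels of 3 members. MiR-1a-3p lay between 5.02 and 6.00 at 4 °C (median 5.28, n = 8) and between 5.02 and 7.84 at RT (median 5.72, n = 8), detected on 16 of 16 arrays. MiR-133a-3p lay between 3.45 and 4.90 at 4 °C (median 4.10) and between 3.93 and 5.63 at RT (median 4.48), also on 16 of 16. MiR-133b-3p lay between 4.55 and 5.73 at 4 °C (median 4.85) and between 4.67 and 6.52 at RT (median 5.22), on 16 of 16. The temperatures overlapped in each, and the highest arrays were those of 1 h and 3 h at RT. The array of 1 h at RT reached 7.84 in miR-1a-3p, where the next highest brain array, of 3 h at RT, had 6.46. On that array the blood cell miRNAs miR-451a (11.17) and miR-144-3p (7.02) were also at their highest among the 16 brain arrays, which ranged from 8.96 to 11.17 and from 4.26 to 7.02. The heart marker miR-499-5p carried its only detection flag in brain there, at 1.99 within a brain range of 1.08 to 2.58. MiR-208a-3p was detected on 0 of 16 brain arrays, and its opposite arm miR-208a-5p on 12 of 16. The part of blood or of heart RNA in the muscle miRNA values of brain was not tested. MiR-133a-5p was detected on 0 of 16 brain arrays, with values from -1.63 to 1.54, the highest again at 1 h at RT.

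Intact brain was at least 16-fold higher than intact liver in miR-1a-3p (adjusted p = 8.65e-13), at least 9-fold in miR-133b-3p (adjusted p = 4.07e-14) and at least 6-fold in miR-133a-3p (adjusted p = 3.87e-12). The fit called 4 of the 5 members higher in brain than in liver, beside 57.9% of all miRNAs. The 4th was miR-206-3p, below detection in both (4.14 ± 0.68, adjusted p = 1.79e-06). Its call was lost without the liver slide of 4 °C (2.08, adjusted p = 0.138) and over all 45 arrays (2.141, adjusted p = 0.0877), and normexp turned it to -0.85 (adjusted p = 1.12e-09). The 5th member, miR-133a-5p, was also below detection in both (0.59 ± 0.34, adjusted p = 0.116). With the background corrected by normexp, which compresses dim signals, the difference of miR-133a-3p between brain and liver turned to -0.44 and passed in that direction (limma adjusted p = 0.000218). That of miR-133b-3p turned to -0.16 (adjusted p = 0.153) and that of miR-1a-3p was 0.15 (adjusted p = 0.193), so that both calls were lost.

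Liver was at or near the background in every member at 4 °C and before 6 h at RT. On later RT arrays every member but miR-133a-5p was detected at least once. MiR-1a-3p was detected on 2 of 14 liver arrays, at 3.30 after 6 h and 3.55 after 12 h at RT, and the other 12 lay between -4.37 and 2.02. MiR-133a-3p was detected on 5 of 14, the RT arrays of 6, 12, 24, 48 and 96 h, at 1.88, 2.04, 2.40, 2.88 and 2.78. MiR-133b-3p was detected on the same 5 arrays, at 2.27, 3.04, 2.40, 2.85 and 2.71. Some of these values overlapped those of the 9 arrays without the flag, which lay between 1.23 and 2.19 in miR-133a-3p and between 1.52 and 2.36 in miR-133b-3p. MiR-133a-5p was detected on 0 of 14. The heart markers miR-208a-3p and miR-499-5p were also detected on 0 of 14 liver arrays. Their opposite arms were detected there, miR-208a-5p on 9 of 14 and miR-499-3p on 3 of 14 liver arrays.

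MiR-206-3p was detected on 6 of the 45 arrays, all of them RT arrays with RIN values of 4.6 or lower. It thus passed the filter of detection on at least 5 arrays only through degraded arrays. Its tests against RIN and storage are therefore not independent of that filter. In heart it was detected at 48 h (2.51, RIN 4.6) and at 96 h (3.44, RIN 2.2), and the other 13 arrays lay between -3.94 and 0.98. In liver it was detected at 24 h (3.81), 48 h (3.98) and 96 h (2.81), with RIN values of 2.7, 2.4 and 2.3, and the other 11 arrays lay between -5.00 and 1.54. In brain it was detected at 96 h (2.54, RIN 3.3), which hardly exceeded the undetected array of 3 h at RT (2.53, RIN 8.7). In heart and liver the detected arrays stood above all other arrays of the tissue, and in brain the detected array did not stand apart. The same arrays held more detected miRNAs of all kinds, with 589 and 683 on the 2 heart arrays against 374 to 490 on the other 13, with 639 to 726 on the 3 liver arrays and 798 on the brain array. MiR-206-3p thus became detectable together with many other miRNAs, and what the probes bound on these arrays was not tested. The signals were small, at 8.01 to 24.4 units before normalization. Under the normexp background correction, which adds an offset of 50 units and so compresses signals of this size, the relation of miR-206-3p to RIN turned to 0.17 in heart (adjusted p = 0.00277) and 0.17 in liver (adjusted p = 0.00242) per RIN unit, where the median slope of all miRNAs in heart was 0.22.

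**Figure D2:**
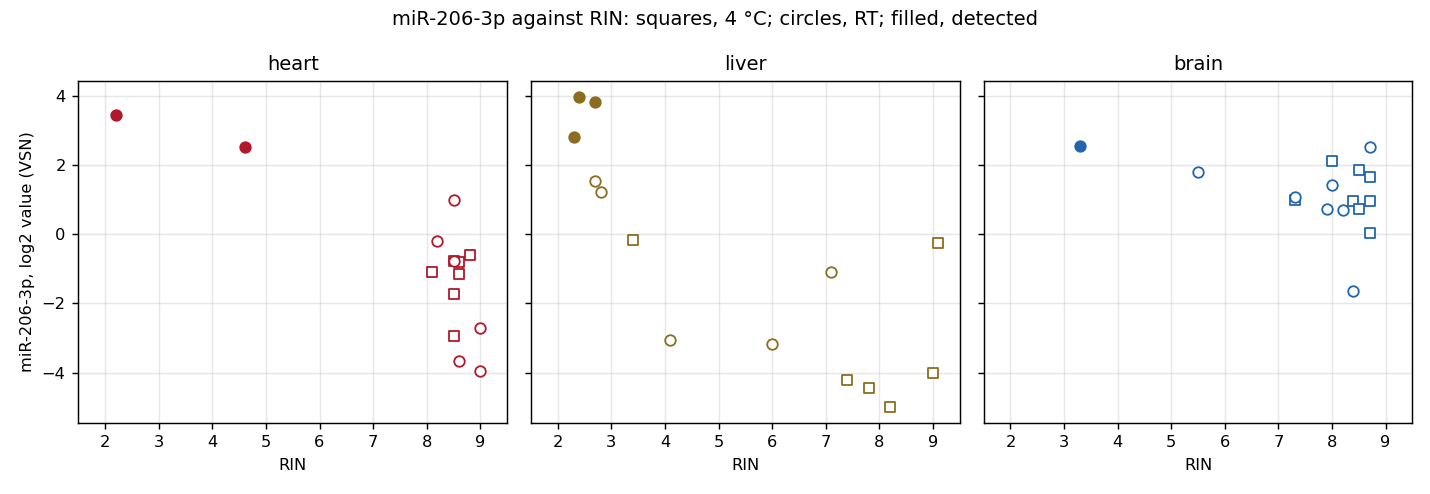
Log2 value (VSN) of miR-206-3p against RIN on each array of heart, liver and brain, with squares for 4 °C, circles for RT and filled points where it was detected. The filled points lie at RIN values from 2.2 to 4.6, and the open points of intact heart and liver lie at 0.98 or lower.

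The RIN slope is the change in log2 value per RIN unit within a tissue, fitted with limma over the 45 arrays and 815 miRNAs with the slide as a fixed term. In heart the slopes of the 4 abundant members were small and did not pass. They were 0.09 ± 0.20 (SE) for miR-1a-3p (95% interval -0.32 to 0.49, adjusted p = 0.728), 0.11 ± 0.06 for miR-133a-3p (-0.02 to 0.24, adjusted p = 0.167), 0.13 ± 0.10 for miR-133a-5p (-0.08 to 0.33, adjusted p = 0.324) and 0.08 ± 0.06 for miR-133b-3p (-0.05 to 0.21, adjusted p = 0.302). The fit estimates 1 spread per miRNA over the arrays of all 3 tissues. The interval of miR-1a-3p, which reaches 0.49 per RIN unit, thus includes the spread of its mostly undetected liver values. Its SD was 2.21 over the liver arrays and 0.31 over the heart arrays. A decline with degradation was not detectable in this fit rather than absent. MiR-206-3p had a slope of -0.89 ± 0.22 (adjusted p = 0.00106), that is, higher values at lower RIN, with the direction turned by normexp as given above. It entered this test only through its detection on arrays of low RIN. The fit called 1 of the 5 members in heart, beside 47.9% of all 815 miRNAs. The positive slopes of the 4 abundant members rest on the array of 96 h at RT, without which they were -0.04, -0.02, -0.04 and -0.05 in the same order.

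The heart slopes also turn on the scaling between arrays. Before normalization, the summed probe signal of miR-1a-3p was 26510 units on the array of 96 h at RT and 43560 on that of 48 h, against 14730 to 27590 on the other 13 heart arrays. With no scaling the 4 slopes were -0.11 (miR-1a-3p), -0.09 (miR-133a-3p), -0.07 (miR-133a-5p) and -0.11 (miR-133b-3p), where the median slope of all miRNAs was -0.19 in place of -0.01. With each array scaled to its 75th percentile they were 0.19, 0.21, 0.23 and 0.19, and all but miR-1a-3p passed (adjusted p = 0.0242, 7.78e-05 and 0.0319, and 0.264 for miR-1a-3p). With quantile normalization miR-133b-3p passed in the opposite direction (-0.26, adjusted p = 0.0128), miR-133a-5p passed with 0.23 (adjusted p = 0.0152), and miR-1a-3p had -0.42 (adjusted p = 0.0755). With normexp all 4 passed, at 0.15 to 0.20, where the median of all miRNAs was 0.22. A direction for these 4 miRNAs in degraded heart can therefore not be given without naming the scaling.

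In liver the RIN slope of miR-206-3p was -0.85 ± 0.22 (adjusted p = 0.00116), and the slopes of the other members lay between -0.19 and 0.18 and did not pass, so that 1 of 5 was called beside 53.5% of all miRNAs. Among the liver arrays with RIN over 6 alone, on none of which it was detected, the slope of miR-206-3p was 1.59 (adjusted p = 0.22). In brain 0 of 5 were called by limma, beside 39.1% of all miRNAs. The largest slopes there were -0.34 ± 0.29 for miR-206-3p (adjusted p = 0.325) and 0.22 ± 0.13 for miR-133a-5p (adjusted p = 0.194), and 1 member, miR-133a-3p, had an unadjusted p under 0.05 (0.17 ± 0.08, adjusted p = 0.0921). Slopes were also compared between tissues in the same fit. The heart slope minus the liver slope was called for 0 of 5 members, beside 1.35% of all miRNAs, with 2 members at an unadjusted p under 0.05, miR-133a-3p (0.23 ± 0.09, adjusted p = 0.292) and miR-133b-3p (0.19 ± 0.09, adjusted p = 0.425). The heart slope minus the brain slope was called for 0 of 5 members and for 0% of all miRNAs, with 0 members and 46 of the 815 miRNAs at an unadjusted p under 0.05.

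**Figure D3:**
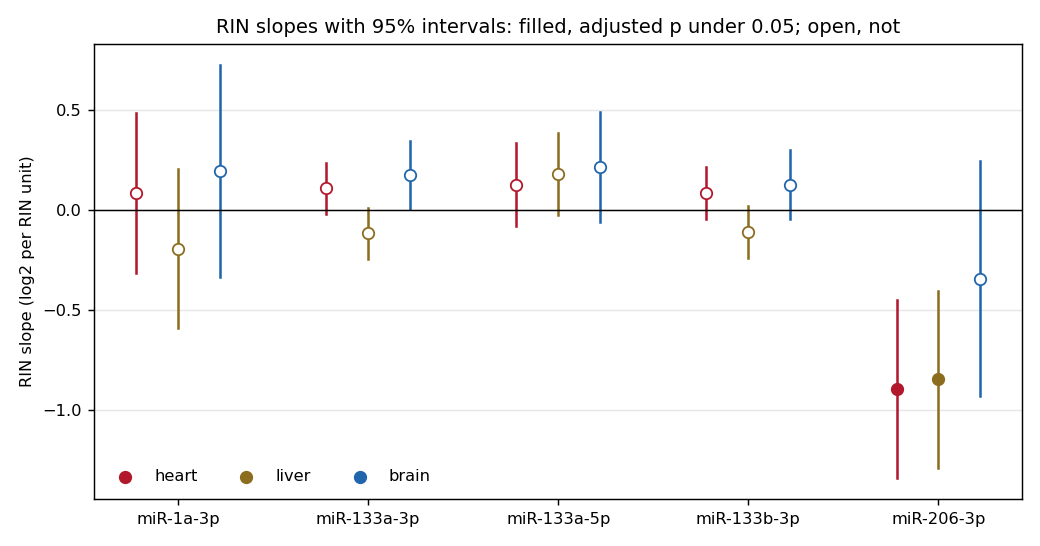
RIN slope of each member in heart, liver and brain, as the change in log2 value per RIN unit from the limma fit, with 95% intervals and filled points where the adjusted p was under 0.05. The 2 filled points are those of miR-206-3p in heart (-0.89) and liver (-0.85).

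Storage time gave the same picture in heart and brain, but not as a separate result. The only arrays of these tissues with RIN of 6 or lower were those of 48 and 96 h at RT. RIN and storage time at RT can therefore not be told apart. The storage slope is the change in log2 value per day, fitted with limma with a slope for each slide and 1 spread per miRNA over all slides. In heart at RT, miR-206-3p rose by 1.64 ± 0.43 per day (adjusted p = 0.00228), and the slopes of the 4 abundant members lay between -0.27 and -0.18 (adjusted p from 0.0757 to 0.609), so that 1 of 5 was called beside 52.3% of all miRNAs. Without the array of 96 h the 4 slopes lay between -0.03 and 0.04, and that of miR-206-3p was 2.70 (adjusted p = 0.0323). Under quantile normalization miR-1a-3p and miR-133b-3p passed with a rise (0.70, adjusted p = 0.0491, and 0.50, adjusted p = 0.00732), and under 75th percentile scaling the 3 miR-133 members passed with slopes from -0.42 to -0.33. Normexp turned the slope of miR-206-3p to -0.27 (adjusted p = 0.0209). Over the first 24 h at RT, miR-1a-3p had values of 14.61, 14.46, 14.93, 14.22, 14.31 and 14.30 at 0, 1, 3, 6, 12 and 24 h, followed by 14.66 at 48 h and 13.64 at 96 h. MiR-133b-3p had 13.99, 13.88, 14.36, 13.61, 13.77 and 13.79 over the same times, then 14.12 and 13.07. The course was thus level with a high array at 3 h and a low one at 96 h, and the other 2 abundant members followed it. In brain at RT 0 of 5 were called by limma, beside 42.7% of all miRNAs, with slopes from -0.36 to -0.18 for the miR-1 and miR-133 members and 0.50 ± 0.43 for miR-206-3p (adjusted p = 0.314). Of the brain members, 2 had an unadjusted p under 0.05, miR-133a-3p (-0.26 ± 0.11, adjusted p = 0.0566) and miR-133a-5p (-0.36 ± 0.17, adjusted p = 0.0731).

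**Figure D4:**
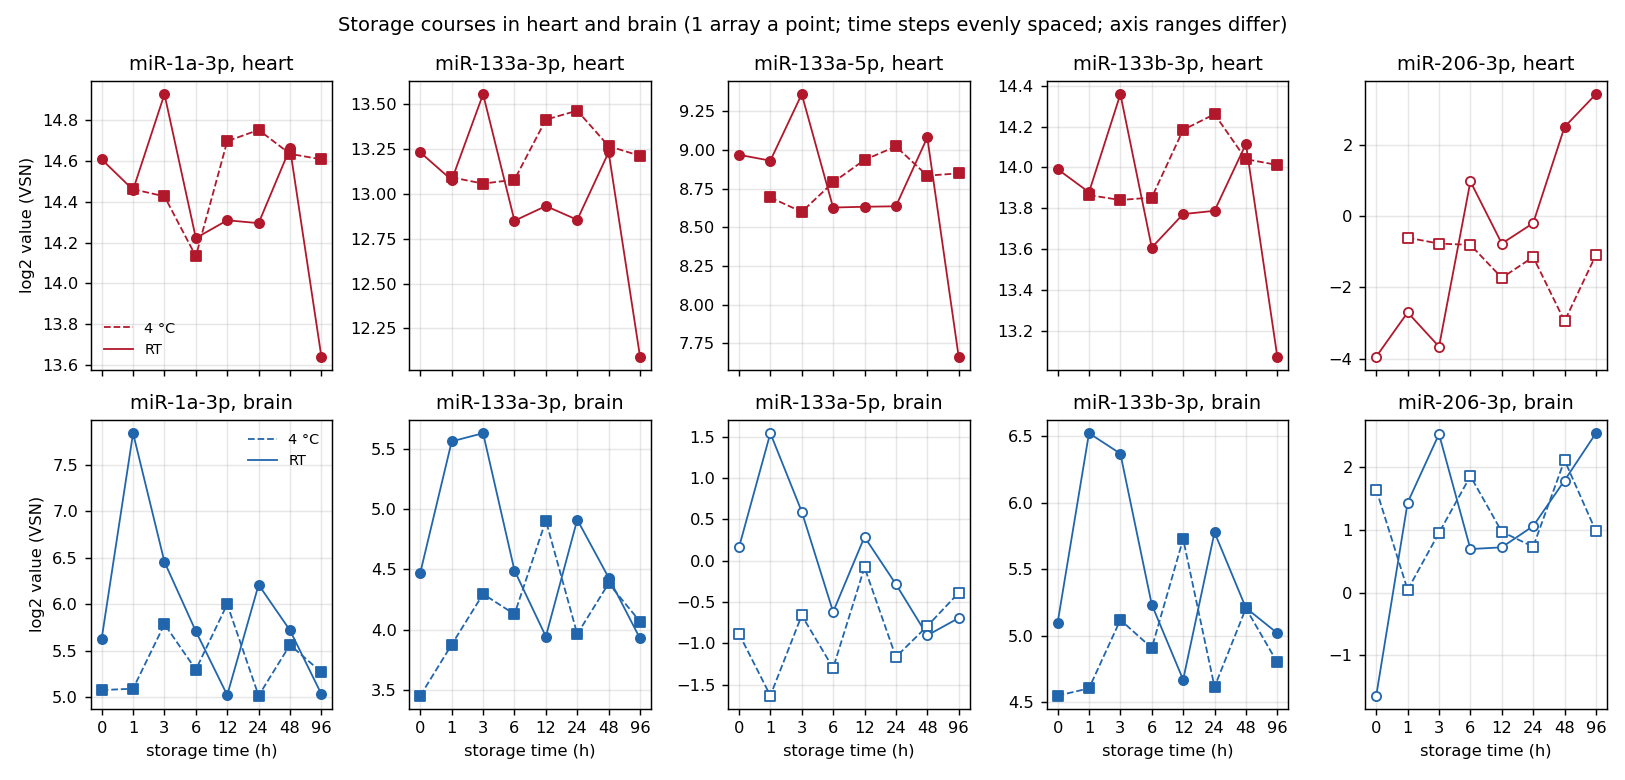
Log2 value (VSN) of each member against storage time in heart (upper row) and brain (lower row), with squares and dashed lines for 4 °C, circles and solid lines for RT, and filled points where the miRNA was detected. The 4 abundant members of heart show the same shape at RT, highest at 3 h and lowest at 96 h, and the brain courses of miR-1a-3p and miR-133b-3p peak at 1 h at RT.

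At 4 °C no member was called in any tissue by limma. In heart 0 of 5 were called beside 0% of all miRNAs (50 of 815 and 0 members at an unadjusted p under 0.05), with slopes from -0.19 to 0.06 per day. In brain 0 of 5 were called beside 0% of all miRNAs (45 of 815 and 0 members at an unadjusted p under 0.05), with slopes from -0.01 to 0.15. In liver 0 of 5 were called beside 2.94% of all miRNAs, and 1 member, miR-1a-3p, had an unadjusted p under 0.05 (1.55 ± 0.68, adjusted p = 0.22) with no liver array of 4 °C in which it was detected.

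In liver at RT 4 of 5 members were called, beside 75.3% of all miRNAs, so that the share was near that of all miRNAs. MiR-206-3p rose by 1.3 ± 0.43 per day (adjusted p = 0.00721) and miR-133a-3p by 0.25 ± 0.11 (adjusted p = 0.0426), while miR-1a-3p fell by 0.95 on the log2 scale per day (SE 0.32, adjusted p = 0.00866), with detection on 2 of these 8 arrays and the call lost with no scaling (-0.45, adjusted p = 0.0956). MiR-133a-5p fell by 0.59 per day (SE 0.17, adjusted p = 0.00206) although it was detected on no liver array, and with signals floored at the detection level its slope was 0 under 75th percentile scaling, quantile normalization and no scaling. The call of miR-133a-3p was lost under quantile normalization (0.10, adjusted p = 0.578) without the 96 h arrays of all tissues (0.48, adjusted p = 0.0644) and in 5 of the 8 fits that left out 1 liver RT array (adjusted p from 0.0549 to 0.0962), and normexp turned it to -0.21 (adjusted p = 0.0529). Normexp also turned the slope of miR-206-3p to -0.15 (adjusted p = 0.227). The slope of miR-133b-3p was 0.16 ± 0.12 (adjusted p = 0.232).

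The difference of the RT and 4 °C slopes was fitted in the same model. It was called for 1 of 5 members in heart (15.3% of all miRNAs), miR-206-3p with 1.83 ± 0.62 per day (adjusted p = 0.0426), and for 1 of 5 in liver (32.3% of all miRNAs), miR-1a-3p with -2.50 ± 0.75 (adjusted p = 0.00876). In brain it was called by limma for 0 of 5, beside 1.47% of all miRNAs, with 1 member, miR-133a-5p, at an unadjusted p under 0.05 (-0.51 ± 0.23, adjusted p = 0.344). For miR-206-3p in heart the value ranged from 1.67 to 2.89 and the adjusted p from 0.0254 to 0.362 when arrays were left out singly, 10 of the 15 such fits lost the call, and normexp turned the value to -0.19 (adjusted p = 0.292). For miR-1a-3p in liver the call rested on single arrays, as leaving out the array of 0 h at 4 °C, at -4.37, gave -1.50 (adjusted p = 0.0972) and leaving out that of 48 h at 4 °C gave -4.42 (adjusted p = 0.1), and the call was also lost with no scaling (-0.62, adjusted p = 0.435) and with normexp (-0.12, adjusted p = 1).

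The 8 liver arrays with RIN of 6 or lower were also compared with the 6 of RIN over 6 by exact 2-sided Wilcoxon-Mann-Whitney tests with Benjamini-Hochberg adjustment over the 815 miRNAs. MiR-206-3p lay between -3.16 and 3.98 (median 1.37) on the low-RIN arrays and between -5.00 and -0.26 (median -4.11) on the others, and it was called (exact test, adjusted p = 0.0324). The ranges overlapped, and the miRNA was detected on 3 of the 8 low-RIN arrays and 0 of the 6 others. MiR-133a-3p lay between 1.88 and 2.88 (median 2.16) and between 1.23 and 2.17 (median 1.89), and was not called (exact test, adjusted p = 0.104). MiR-133b-3p, miR-1a-3p and miR-133a-5p had adjusted p values of 0.21, 0.598 and 0.984 in the exact test. Thus 1 of 5 was called, beside 27.7% of all miRNAs. The call of miR-206-3p was lost in 12 of 14 fits that left out 1 liver array and under 75th percentile scaling, quantile normalization and no scaling. With limma and the slide as a block it was 2.75 (adjusted p = 0.395), and normexp turned it to -0.83 (exact test, adjusted p = 0.0118).

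Across the 15 heart arrays the abundant members moved together. The 10 pairs of members were compared with permutation tests of 100000 permutations and Benjamini-Hochberg adjustment over the 10. MiR-133a-3p and miR-133b-3p had a Pearson r of 0.99 (permutation p = 1e-05, adjusted 3.3e-05) and a Spearman rho of 0.98 (permutation p = 1e-05, adjusted 3.3e-05), and their difference had an SD of 0.07 on the log2 scale. The permutation p of 1e-05 is the smallest that this number of permutations can give. Without the 2 arrays farthest from the median r was 0.96, and within the slides it was 0.997 at 4 °C (n = 7) and 0.987 at RT (n = 8). The other 5 pairs of the 4 abundant members had r from 0.92 to 0.96 and rho from 0.86 to 0.95 (adjusted permutation p up to 0.00023), and r from 0.74 to 0.89 without 2 arrays. Within the slide of 4 °C, r of these 5 pairs was 0.62 to 0.92, with the lowest between miR-1a-3p and miR-133a-5p, and within that of RT it was 0.98 to 0.995. MiR-206-3p had r from -0.69 to -0.64 with the other members (permutation p from 0.0042 to 0.011, adjusted 0.006 to 0.011) and rho from -0.67 to -0.60 (permutation p from 0.0073 to 0.02, adjusted 0.01 to 0.02). These relations fell to r between -0.32 and -0.16 without the 2 arrays farthest from the median of the first member, and to r between -0.31 and -0.26 (adjusted permutation p = 0.33) with the array of 0 h at 4 °C included. On the 13 arrays with RIN over 6, where miR-206-3p was not detected, they were -0.75 to -0.65 (adjusted permutation p from 0.0034 to 0.017). There they rest on values of miR-206-3p below detection, which carry little information. The arrays share slide, normalization and storage course, and their part in these correlations was not tested.

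In brain the same test was run on 3 pairs over 16 arrays, chosen after seeing the data because these members were detected on every brain array. MiR-133a-3p and miR-133b-3p had r of 0.97 and rho of 0.95, miR-1a-3p and miR-133b-3p r of 0.93 and rho of 0.91, and miR-1a-3p and miR-133a-3p r of 0.90 and rho of 0.90 (each permutation p = 1e-05, adjusted 1e-05). Within the 2 brain slides r ranged from 0.88 to 0.97, and without the 2 arrays farthest from the median from 0.92 to 0.94. The SD of the difference between miR-133a-3p and miR-133b-3p was 0.14, against 0.32 between miR-1a-3p and miR-133a-3p. The members of nearly the same sequence thus kept the closest distance in both tissues. How far their probes bind each other's target was not tested.

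The miRNAs most like each member were ranked by Pearson r among the 815 tested miRNAs, as a description. Over all 45 arrays, which largely reflects tissue, miR-133a-3p was nearest to miR-133b-3p (0.998), then to the myosin-gene miRNA miR-499-5p (0.988) and to miR-486a-5p (0.98), a miRNA of muscle and red blood cells. MiR-1a-3p was nearest to miR-133b-3p (0.971), miR-486a-3p (0.961) and miR-133a-3p (0.961), and miR-133a-5p to the myosin-gene miRNA miR-208a-3p (0.981), miR-499-5p (0.98) and miR-133a-3p (0.978). Within the 15 heart arrays, miR-378b was among the nearest 3 of miR-133a-3p (0.969), miR-133a-5p (0.965) and miR-133b-3p (0.954), and miR-22-5p among those of miR-1a-3p (0.938) and miR-133a-3p (0.967). MiR-206-3p had none of the other members near it. It was nearest to miR-672-5p (0.885), miR-6973a-5p (0.846) and miR-1188-5p (0.837) over 45 arrays, and to miR-669n (0.917), miR-468-3p (0.917) and miR-669l-5p (0.916) over the heart arrays.

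Of 15 other muscle miRNAs listed, 14 were on the array and 8 were tested. Of these 8, 8 were called higher in heart than in liver and 8 higher in heart than in brain, with median differences of 4.30 and 4.54 on the log2 scale. The shares of all 815 miRNAs called higher were 44.9% and 22%, as above, and several of the 8 were below detection in liver or brain, so that these medians rest in part on undetected values. MiR-1a-1-5p, miR-1a-2-5p, miR-208a-3p and miR-208b-3p were detected on heart arrays alone, and miR-499-5p and miR-499-3p on few others. These miRNAs passed the detection filter only through heart, so that their calls are not independent of it. The largest 3 fitted differences were those of miR-208a-3p, miR-499-5p and miR-486a-5p. MiR-208a-3p was undetected in intact brain, and heart (mean 7.79) was at least 92-fold higher (measured brain mean -2.95, limma adjusted p = 7.95e-25). MiR-499-5p had means of 9.58 in heart and 2.02 in brain, where it was detected on 1 of 14 intact arrays (7.56 ± 0.23), and miR-486a-5p had 9.03 and 4.21 with detection on all of them (4.82 ± 0.19). Of the members' other arms in this list, those of miR-1a were detected in heart and those of miR-133b and miR-206 were not. MiR-1a-1-5p was detected on 15 of 15 heart arrays, at 1.64 to 3.53 (median 3.08), and on 0 liver or brain arrays. MiR-1a-2-5p was detected on 11 of 15 heart arrays and on 0 others, with values of 0.33 to 2.18 (median 1.81) over all 15 heart arrays. MiR-133b-5p and miR-206-5p were detected on 0 of the 45 arrays. In heart the RIN slopes of the 2 miR-1a 5p arms passed, at 0.14 ± 0.06 for miR-1a-1-5p (adjusted p = 0.0333) and 0.21 ± 0.06 for miR-1a-2-5p (adjusted p = 0.00243). They were the 2 called of the 8 muscle miRNAs, beside 47.9% of all miRNAs. Whether these slopes differ from that of miR-1a-3p (0.09 ± 0.20) was not tested. The slopes of the 2 arms are given for the VSN values alone, while those of the abundant members turned on the scaling. The heart median of miR-1a-2-5p was also near the lowest value of a detected miRNA, which was 0.25 to 1.79 depending on the array.

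Each member was read by 2 probes of 15 spots each. In heart the brighter probe gave 2.84 to 3.86 times the signal of the other for miR-1a-3p over the 15 arrays, 4.33 to 5.44 times for miR-133a-3p, 2.08 to 2.53 times for miR-133a-5p and 2.99 to 3.86 times for miR-133b-3p. The ratio of the 2 probes thus held within a narrow range while RIN fell from 9 to 2.2. For miR-206-3p both probes were higher on the 2 heart arrays with low RIN. They gave 3.67 to 9.99 and 4.34 to 11.2 units there, against at most 0.255 and 0.678 units on the 13 intact heart arrays.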

How the data were processed

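The authors hybridised total RNA to Agilent miRNA arrays (Feature Extraction 10.10.1.1, per the file headers) and deposited a table of log2 values after background correction and variance stabilizing normalization. They also deposited the scanner files, whose summed probe intensity signals and detection flags were used here for detection, for bounds and for other scalings. Spearman correlation between the deposited log2 values and the signals was 1 on every array. Columns and samples were joined by their labels.

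The members and lists were chosen with earlier results of these data known. MiRNAs detected on at least 5 of 45 arrays (815) were tested in R 4.3.3 with limma 3.58.1, 2-sided, with Benjamini-Hochberg adjustment over the 815 and calls at an adjusted p under 0.05. Tissues were compared on arrays with RIN over 6 with slide as a random block. RIN slopes had slide as a fixed term, and storage slopes were fitted for each slide. Liver arrays of low and high RIN were compared by exact Wilcoxon-Mann-Whitney tests. Every member was named in every comparison, with the 3 miRNAs nearest to each, the members' other arms and the 3 largest differences among other muscle miRNAs. Scripts were tested on simulated data. Alternatives were 75th percentile scaling, quantile normalization, no scaling, normexp with an offset of 50 (on the median spot signal, since the files used hold no mean), detection on at least 3 or 10 arrays, other sets of arrays, other treatment of slide, animal and time, and leaving out each array. Array position followed storage time on 5 of 6 slides, and each slide was scanned on a day of its own. With 1 organ per slide, the number of arrays limits the precision.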

Additional observations from a re-analysis of the deposited data

Results flagged for a closer look

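Within the groups of 6 to 8 arrays, 4 of 30 sets of values had an end array far from the rest by Dixon's criterion, which chance gives in about 1 of 20. These were miR-1a-3p (-4.37) and miR-133b-3p (1.52) on the liver array of 0 h at 4 °C, both undetected there, miR-133a-5p on the heart array of 96 h at RT (7.66), and undetected miR-206-3p on the brain array of 0 h at RT (-1.65). The storage slopes at RT and 4 °C differed in the limma fit for miR-206-3p in heart, by 1.83 per day on the log2 scale (adjusted p = 0.0426), and for miR-1a-3p in liver, by -2.50 (adjusted p = 0.00876). Temperature, animal and slide cannot be told apart in either.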

How the results depend on the processing

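The heart against liver and heart against brain differences of miR-1a-3p, miR-133a-3p, miR-133a-5p and miR-133b-3p kept their direction and call under all 16 alternatives, with normexp giving the smallest differences. Each value for a single member or pair was counted once under every alternative, with arrays left out singly included. Of these counts, 127 turned direction without passing the test in either setting and 26 turned with a call in at least 1 of the 2 settings. Without turning, 56 gained a call and 61 lost one. The result was the same in 1338 without a call and in 364 with one. The cause of the turns was not tested. Normexp and no scaling also moved the median RIN slope of all miRNAs in heart from -0.01 to 0.22 and -0.19. Values of undetected miRNAs carry little information, and the small number of arrays limits all slopes. Leaving out slides, the replicate blocks and the brain pairs were alternatives chosen after seeing the data. The labels give every sample the same replicate number, but the organs of a temperature share an animal. With the animal, or the animal and time, as a replicate block, the heart against liver difference of miR-206-3p was 1.70 (limma adjusted p = 0.0327) and 1.55 (adjusted p = 0.104), and the block changed no other member's call between tissues. Values below are log2 differences or slopes, or counts of the 5 members. The share of all miRNAs called under each alternative is not given here. The counts therefore do not show whether the members differ from other miRNAs under that setting.

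Without the liver slide of 4 °C the direction turned for heart against liver (miR-206-3p -0.41), for brain against liver (miR-133a-5p -0.64). With normexp the direction turned for heart against liver (miR-206-3p -0.78), for heart against brain (miR-206-3p 0.072), for brain against liver (miR-133a-3p -0.44, miR-133a-5p -0.94, miR-133b-3p -0.16, miR-206-3p -0.85), for RIN in heart (miR-206-3p 0.17), for RIN in liver (miR-133a-3p 0.20, miR-133b-3p 0.20, miR-1a-3p 0.22, miR-206-3p 0.17), for RIN in brain (miR-206-3p 0.16), for RIN, heart minus liver (miR-133a-3p -0.039, miR-133b-3p -0.054, miR-1a-3p -0.066), for RIN, heart minus brain (miR-206-3p 0.011), for storage in heart at RT (miR-206-3p -0.27), for storage in liver at RT (miR-133a-3p -0.21, miR-133b-3p -0.22, miR-206-3p -0.15), for storage in brain at RT (miR-206-3p -0.20), for storage in heart at 4 °C (miR-133a-3p -0.017, miR-133a-5p -0.027, miR-133b-3p -0.02), for storage in liver at 4 °C (miR-133a-3p -0.28, miR-133a-5p -0.28, miR-133b-3p -0.28, miR-1a-3p -0.24, miR-206-3p -0.27), for storage in brain at 4 °C (miR-133a-3p -0.002, miR-133a-5p -0.019, miR-206-3p -0.015), for storage in heart, RT minus 4 °C (miR-206-3p -0.19), for storage in brain, RT minus 4 °C (miR-206-3p -0.19), for low against high RIN (miR-133a-3p -0.97, miR-133b-3p -0.97, miR-1a-3p -0.998, miR-206-3p -0.83). With normexp the members called numbered 5 in RIN in heart, 5 in RIN in liver, 5 in RIN in brain, 5 in storage in heart at RT, 3 in storage in brain at RT, 0 in storage in heart, RT minus 4 °C, 0 in storage in liver, RT minus 4 °C, 5 in low against high RIN. With no scaling the direction turned for RIN in heart (miR-133a-3p -0.087, miR-133a-5p -0.068, miR-133b-3p -0.11, miR-1a-3p -0.11), for RIN in brain (miR-133a-3p -0.081, miR-133b-3p -0.13, miR-1a-3p -0.058), for RIN, heart minus brain (miR-133b-3p 0.018), for storage in heart at RT (miR-133a-3p 0.11, miR-133a-5p 0.067, miR-133b-3p 0.16, miR-1a-3p 0.15), for storage in brain at RT (miR-133a-3p 0.086, miR-133b-3p 0.16, miR-1a-3p 0.026), for storage in brain at 4 °C (miR-1a-3p 0.054), for storage in heart, RT minus 4 °C (miR-133a-3p 0.049, miR-133b-3p 0.093, miR-1a-3p 0.058), for storage in brain, RT minus 4 °C (miR-133b-3p 0.092). With no scaling the members called numbered 3 in RIN in liver, 1 in RIN in brain, 1 in storage in brain at RT, 0 in storage in liver, RT minus 4 °C, 2 in low against high RIN. With quantile normalization the direction turned for RIN in heart (miR-133b-3p -0.26, miR-1a-3p -0.42), for RIN, heart minus liver (miR-133a-5p 0.23, miR-133b-3p -0.22, miR-1a-3p -0.19), for RIN, heart minus brain (miR-133a-5p 0.057), for storage in heart at RT (miR-133b-3p 0.50, miR-1a-3p 0.70), for storage in liver at RT (miR-133b-3p -0.024), for storage in brain at 4 °C (miR-133a-3p -0.053, miR-133b-3p -0.033), for storage in heart, RT minus 4 °C (miR-133b-3p 0.40, miR-1a-3p 0.68), for storage in liver, RT minus 4 °C (miR-133a-3p -0.36, miR-133b-3p -0.29). With quantile normalization the members called numbered 3 in RIN in heart, 1 in RIN in brain, 4 in storage in heart at RT, 2 in storage in liver at RT, 1 in storage in brain at RT, 0 in storage in heart, RT minus 4 °C, 0 in low against high RIN. With 75th percentile scaling the direction turned for RIN, heart minus liver (miR-133a-5p 0.23), for RIN, heart minus brain (miR-133a-3p 0.024, miR-133a-5p 0.19, miR-133b-3p 0.048), for storage in heart at 4 °C (miR-133a-3p -0.04, miR-133a-5p -0.033, miR-133b-3p -0.034, miR-1a-3p -0.006), for storage in liver at 4 °C (miR-133a-3p -0.022, miR-133b-3p -0.25), for storage in brain at 4 °C (miR-1a-3p 0.058). With 75th percentile scaling the members called numbered 4 in RIN in heart, 4 in storage in heart at RT, 0 in low against high RIN. On arrays with RIN over 6 the direction turned for RIN in liver (miR-133a-5p -0.66, miR-206-3p 1.59), for RIN in brain (miR-133a-5p -0.086), for RIN, heart minus liver (miR-133a-5p 0.89), for RIN, heart minus brain (miR-133a-3p 0.11, miR-133a-5p 0.32, miR-133b-3p 0.012, miR-1a-3p 0.12). On arrays with RIN over 6 the members called numbered 0 in RIN in heart, 0 in RIN in liver. With detection on at least 10 arrays (a filter that miR-206-3p fails) the members called numbered 0 in RIN in heart, 0 in RIN in liver, 0 in storage in heart at RT, 0 in storage in heart, RT minus 4 °C, 2 in storage in liver, RT minus 4 °C, 0 in low against high RIN. On RT arrays alone the direction turned for RIN in liver (miR-1a-3p 0.093), for RIN, heart minus liver (miR-1a-3p -0.005, miR-206-3p 0.29). On RT arrays alone the members called numbered 2 in RIN in liver. With tissue in place of slide the direction turned for RIN, heart minus liver (miR-133a-5p 0.052, miR-206-3p 0.064), for RIN, heart minus brain (miR-133a-3p 0.058, miR-133a-5p 0.078, miR-133b-3p 0.071, miR-1a-3p 0.014). With tissue in place of slide the members called numbered 2 in RIN in liver. Without the 96 h arrays the direction turned for storage in heart at RT (miR-133b-3p 0.038, miR-1a-3p 0.005), for storage in brain at 4 °C (miR-1a-3p 0.075). Without the 96 h arrays the members called numbered 0 in storage in heart, RT minus 4 °C, 2 in storage in liver, RT minus 4 °C. With time as log2(hours + 1) the direction turned for storage in liver at 4 °C (miR-206-3p -0.047), for storage in brain at 4 °C (miR-1a-3p 0.027). With time as log2(hours + 1) the members called numbered 1 in storage in brain at RT, 1 in storage in liver at 4 °C, 3 in storage in liver, RT minus 4 °C. With limma and the slide as a block the members called numbered 0 in low against high RIN. When arrays were left out singly, the ranges were -0.024 to 0.15 for miR-133a-3p in RIN in heart, -0.04 to 0.19 for miR-133a-5p in RIN in heart, -0.045 to 0.13 for miR-133b-3p in RIN in heart, -0.039 to 0.13 for miR-1a-3p in RIN in heart, 1 to 2 members called in RIN in liver, 0 to 1 members called in RIN in brain, -0.23 to 0.027 for miR-133a-5p in RIN, heart minus liver, -0.29 to 0.14 for miR-206-3p in RIN, heart minus liver, -0.17 to 0.01 for miR-133b-3p in RIN, heart minus brain, -0.23 to 0.038 for miR-133b-3p in storage in heart at RT, -0.23 to 0.005 for miR-1a-3p in storage in heart at RT, 1 to 2 members called in storage in heart at RT, 0 to 2 members called in storage in brain at RT, -0.014 to 0.40 for miR-133b-3p in storage in liver at 4 °C, -2.31 to 1.99 for miR-206-3p in storage in liver at 4 °C, -0.026 to 0.22 for miR-133a-3p in storage in brain at 4 °C, -0.034 to 0.17 for miR-133b-3p in storage in brain at 4 °C, -0.042 to 0.075 for miR-1a-3p in storage in brain at 4 °C, -0.037 to 0.44 for miR-206-3p in storage in brain at 4 °C, -0.31 to 0.009 for miR-133b-3p in storage in heart, RT minus 4 °C, 0 to 1 members called in storage in heart, RT minus 4 °C, -0.11 to 0.23 for miR-133a-3p in storage in liver, RT minus 4 °C, -0.24 to 0.23 for miR-133b-3p in storage in liver, RT minus 4 °C, -0.69 to 3.61 for miR-206-3p in storage in liver, RT minus 4 °C, 0 to 2 members called in storage in liver, RT minus 4 °C, -0.42 to 0.046 for miR-133a-5p in low against high RIN, 0 to 1 members called in low against high RIN.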
